A study of Mus musculus with 9 samples.

Results

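The 10 genes described here take up, store, export, release and sense iron in mouse cells: Tfrc, Slc11a2, Slc25a37, Fth1, Ftl1, Slc40a1, Hmox1, Aco1, Ireb2 and Fbxl5. They were picked by symbol, out of 37187 genes in the table of LSK cells and 45076 in the table of neutrophils, because Tfrc was much higher in knockout than in wild-type LSK cells. The series asks whether Spop, the substrate adaptor of a cullin ubiquitin ligase, holds back blood formation under inflammation through MyD88. Bulk RNA-seq was made from sorted bone marrow cells of mice aged 4 to 12 weeks. Spop(D/D) mice, titled KO and called knockout here, gave 2 libraries of LSK cells and 3 of Ly6G+ neutrophils. Spop(+/+) mice, titled WT and called wild type, gave 2 libraries of each. LSK cells are the lineage-negative, Sca-1+ and Kit+ fraction that holds blood stem cells and multipotent progenitors. The promoter or Cre line behind the D allele, the deleted part of Spop and whether animals were pooled are not stated in the labels.

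A cell takes in iron mainly as transferrin bound to the transferrin receptor, keeps the surplus inside ferritin, hands part of it to mitochondria for haem and iron-sulphur clusters, and releases it through ferroportin. Rapidly dividing progenitors and red cell precursors draw on the receptor, while macrophages return iron from old red cells through haem oxygenase and ferroportin. The balance is set largely after transcription by the iron regulatory proteins, which bind a hairpin called the iron-responsive element when iron is scarce. A hairpin in the 5′ untranslated region (UTR) then blocks translation, and hairpins in the 3′ UTR of Tfrc protect its mRNA from decay. RNA-seq reads the mRNA level and not the translation.

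The hairpin letters of the members are shown because they divide the genes into those whose mRNA is guarded at its 3′ end and those blocked at the 5′ end. The search read the sense strand of annotated transcripts (GENCODE M21, GRCm38) for a C, any 5 bases, CAGTGN as the loop, and 5 bases able to pair with the 5 before the loop, G-T pairs allowed. It matched 1 place in the 5′ UTR of Fth1, Ftl1 and Slc40a1 each and 4 places in the 3′ UTR of Tfrc, and no place in the other members, which says only that these letters are not there. Over all 21888 protein-coding genes, 0.142% held such a match in a 5′ UTR and 0.589% in a 3′ UTR. Of the other iron genes listed further on, Alas2 held a 5′ match and Bola3 a 3′ match. Capitals mark the 6 bases of the loop, each sequence is written 5′ to 3′ on the gene's strand, and a match is a description of letters.
Fth1, 5′ UTR, chr19:9982732-9982760, plus strand: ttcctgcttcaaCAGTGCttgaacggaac
Ftl1, 5′ UTR, chr7:45459779-45459807, minus strand: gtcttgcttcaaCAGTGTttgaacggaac
Slc40a1, 5′ UTR, chr1:45925465-45925493, minus strand: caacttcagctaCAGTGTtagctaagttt
Tfrc, 3′ UTR, chr16:32631219-32631247, plus strand: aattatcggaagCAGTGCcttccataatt
Tfrc, 3′ UTR, chr16:32631598-32631626, plus strand: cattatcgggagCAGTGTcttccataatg
Tfrc, 3′ UTR, chr16:32631663-32631691, plus strand: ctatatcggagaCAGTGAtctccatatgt
Tfrc, 3′ UTR, chr16:32631710-32631738, plus strand: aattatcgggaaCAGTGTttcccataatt

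LSK libraries held 18827892 to 20264417 counted reads and neutrophil libraries 21012702 to 27434086. The second knockout LSK library is entered as neutrophil in its cell type field but titled LSK. All LSK libraries held 0 reads of the neutrophil surface gene Ly6g and had Kit at 605 and 644 CPM (read counts scaled to library size) in knockout and 990 and 1049 CPM in wild type. In neutrophils Ly6g lay at 700, 351 and 914 CPM in knockout and 515 and 85.7 CPM in wild type. The second wild-type neutrophil library stood apart, with MHC class II genes summing to 25483 CPM, against 41.2 to 104 CPM in knockout and 647 CPM in the first wild-type library. The third knockout neutrophil library stood apart through red cell genes, 18725 CPM against 4.03 and 42.9 CPM in the other knockout libraries and 1811 and 3764 CPM in wild type, and S100a8 took 18.2% of its reads. Whole-gene Spop reads were 312 and 306 CPM in knockout LSK cells and 380 and 390 CPM in wild type, and 158, 178 and 210 CPM in knockout neutrophils and 135 and 194 CPM in wild type, which does not check the genotype because the deleted part is not known.

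In knockout LSK cells the receptor that brings iron in was several-fold higher, and the exporter and the haem-degrading enzyme were lower. Both ferritin genes were lower by less. The sensors Aco1, Ireb2 and Fbxl5 differed by at most 0.24 on the log2 scale in either direction. Because this comparison chose the genes, the LSK values are a description, given with standard errors (SE) of the edgeR fit and no test.

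Tfrc encodes the transferrin receptor (chromosome 16, 32608920 to 32632794, plus strand, GRCm38). Its level was 282 and 286 CPM in knockout LSK cells and 36.4 and 40.2 CPM in wild type. Both knockout libraries were far above both wild-type libraries, and replicates lay close together, with means of 284 ± 2.89 CPM in knockout and 38.3 ± 2.74 CPM in wild type (SD, n = 2 each). The difference was 7.41-fold (log2 2.89, SE 0.106), and it was 2.88 without the library with the conflicting entry. In bulk RNA a change in the share of a cell type and a change in RNA per cell cannot be told apart. Genes of S, G2 and M phase moved with Tfrc: 19 of 20 rose and 0 fell, beside 21.0% higher and 21.2% lower of all genes. The 20 genes summed to 7577 and 8217 CPM in knockout and 4370 and 4238 CPM in wild type. Their part in the Tfrc difference was not tested.

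The other carriers of iron into the cell and its mitochondria were near their wild-type levels. Slc11a2, the divalent metal transporter that lets iron out of the endosome (chromosome 15, 100387898 to 100425072, minus strand), lay at 40.7 and 41.5 CPM in knockout and 34.1 and 34.2 CPM in wild type, and the groups did not overlap (log2 0.27, SE 0.133). Slc25a37, mitoferrin 1 of the inner mitochondrial membrane (chromosome 14, 69241848 to 69285112, minus strand), lay at 21.2 and 19.1 CPM in knockout and 18.3 and 19.7 CPM in wild type, and the groups overlapped (log2 0.09, SE 0.176).

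Ferritin heavy chain, Fth1, carries the ferroxidase site that loads iron into the shell (chromosome 19, 9980598 to 9985098, plus strand). It was the member with the most reads, at 1125 and 1332 CPM in knockout and 1613 and 1436 CPM in wild type. Ferritin light chain, Ftl1, helps to form the iron core (chromosome 7, 45457944 to 45459884, minus strand) and lay at 44.7 and 62.2 CPM in knockout and 74.0 and 70.5 CPM in wild type. Knockout libraries were below wild type for both chains, and the first knockout library was the lowest for both. The log2 differences were -0.31 (SE 0.110) for Fth1 and -0.44 (SE 0.150) for Ftl1. They depended on that library: without it they were -0.15 and -0.18, and without the second knockout library -0.43 and -0.69. Ferritin values are also uncertain because the genome holds many near copies and 26.5% of the exon bases of Ftl1 overlap the opposite-strand Gm10252. The named copies in the tables, Fth-ps2, Ftl1-ps1, Ftl1-ps2, Ftl2 and Ftl2-ps, held at most 16 reads in any library, but the sources used here do not give how reads matching several copies were counted.

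Slc40a1 encodes ferroportin, the exporter of iron (chromosome 1, 45908068 to 45926523, minus strand). It lay at 7.40 and 7.34 CPM in knockout LSK libraries and 15.2 and 18.5 CPM in wild-type ones. Hmox1, haem oxygenase 1, opens the haem ring and frees its iron (chromosome 8, 75093621 to 75100589, plus strand), and lay at 2.97 and 1.44 CPM in knockout and 13.9 and 15.2 CPM in wild type. Both genes were lower in both knockout libraries, 2.29-fold for Slc40a1 (log2 -1.19, SE 0.215) and 6.60-fold for Hmox1 (log2 -2.72, SE 0.321). The Hmox1 values rest on 57 and 27 reads in knockout and 275 and 325 reads in wild type, and its difference was -3.30 without the first and -2.29 without the second knockout library. Slc40a1 was at -1.18 without the second.

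Macrophage and red cell genes moved with the 2 members just described. Of 11 macrophage genes tested, 9 fell and 1 rose, beside 21.2% lower and 21.0% higher of all genes. The rise was that of Csf1r, the receptor for M-CSF. The complement gene C1qb lay at 0.417 and 0.319 CPM in knockout and 10.5 and 12.4 CPM in wild type. Spic, a transcription factor of iron-recycling macrophages, lay at 0.469 and 1.44 CPM in knockout and 10.1 and 9.24 CPM in wild type. Siglec1, Timd4 and Marco held no read in knockout but were also very low in wild type and are not among the called genes. Their wild-type values were 0.152 and 0.375 CPM for Siglec1, 0.406 and 0.563 CPM for Timd4, and 0.0507 and 0 CPM for Marco. The whole list of 14 summed to 140 and 194 CPM in knockout and 121 and 155 CPM in wild type, ranges that overlap. Of 14 red cell genes, 10 fell and 0 rose, beside the same shares of all genes. The red cell list summed to 439 and 572 CPM in knockout and 1178 and 1188 CPM in wild type. Hba-a2, Slc4a1 and Alas2 held no read in knockout and lay at 0.751 to 1.92 CPM in wild type. The part of such cells in the Slc40a1 and Hmox1 differences was not tested.

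The sensing genes were close to wild type. Aco1, iron regulatory protein 1, is an aconitase while it carries an iron-sulphur cluster (chromosome 4, 40143081 to 40198338, plus strand), and lay at 81.6 and 92.2 CPM in knockout and 77.4 and 81.8 CPM in wild type. Ireb2, iron regulatory protein 2 (chromosome 9, 54863789 to 54912530, plus strand), lay at 75.7 and 67.7 CPM in knockout and 64.7 and 59.1 CPM in wild type. Fbxl5, the iron-binding adaptor of the ubiquitin ligase that marks iron regulatory protein 2 for destruction (chromosome 5, 43744615 to 43821638, minus strand), lay at 150.2 and 150.1 CPM in knockout and 182 and 172 CPM in wild type. The Aco1 groups overlapped (log2 0.13, SE 0.113), Ireb2 was higher in both knockout libraries (log2 0.21, SE 0.120) and Fbxl5 lower in both (log2 -0.24, SE 0.0948).

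All 10 genes passed the filter on low counts in LSK cells. By edgeR's quasi-likelihood test, 1 of 10 was called higher (Tfrc) and 4 lower (Fth1, Ftl1, Slc40a1, Hmox1), beside 21.0% higher and 21.2% lower of the 13008 genes tested. Groups did not overlap, with knockout higher, for 3 members beside 34.6% of all genes, and with knockout lower for 5 beside 38.3%. The median member log2 difference was -0.08, against -0.03 over all genes. The number of members called was 3 without the first knockout library or without either wild-type library, 4 with RLE scaling and 6 with upper-quartile scaling. Nothing is read from these counts, because the same contrast chose the genes.

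**Figure D1:**
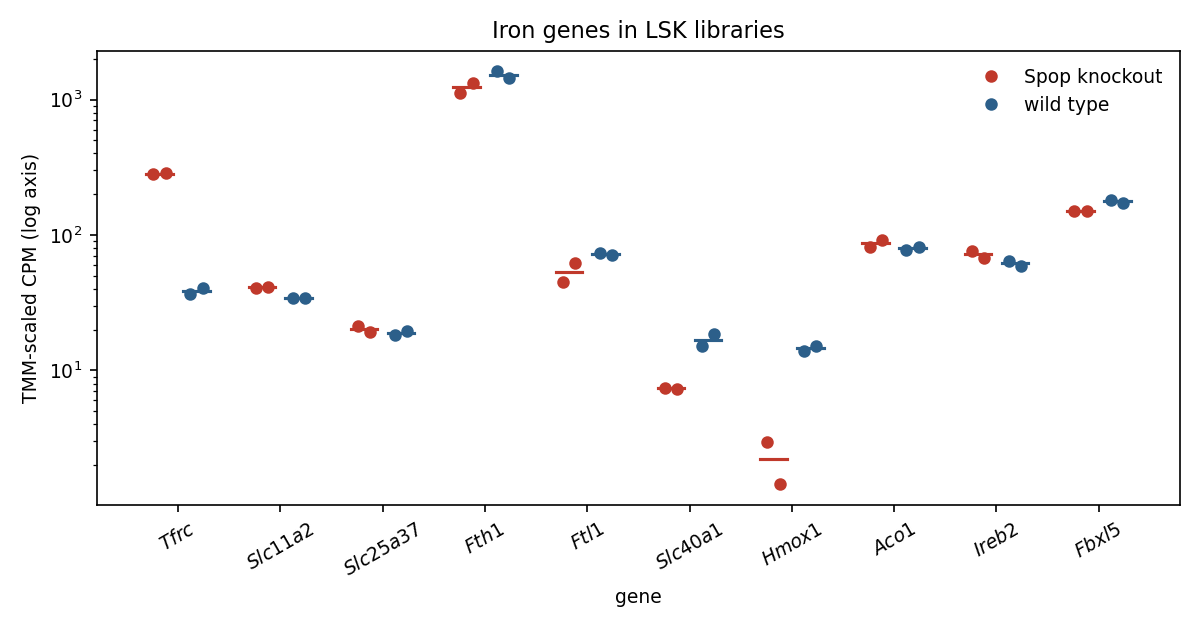
Levels of the 10 iron genes in LSK cells, as TMM-scaled CPM on a log axis, with a point per library and a bar at each group mean (n = 2 each, knockout left of wild type). Tfrc stands at 282 and 286 CPM in knockout and 36.4 and 40.2 CPM in wild type, and Hmox1 at 2.97 and 1.44 CPM in knockout and 13.9 and 15.2 CPM in wild type.

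Scaled to exon length, the place of Tfrc among the members differed between genotypes. In knockout LSK cells Fth1 was highest at 354 ± 42.4 CPM per kb, followed by Tfrc at 45.9 ± 0.467 and Ftl1 at 39.9 ± 9.25, whose libraries overlapped those of Tfrc. Below them came Aco1, Fbxl5, Ireb2, Slc11a2 and Slc25a37, which did not overlap their neighbours, and then Hmox1 at 1.26 ± 0.620 and Slc40a1 at 0.819 ± 0.00474 CPM per kb, which overlapped each other (SD, n = 2). In wild-type LSK cells Tfrc was in place 7, at 6.19 ± 0.443 CPM per kb, overlapping Ireb2 just above it, and Hmox1 was in place 5, at 8.34 ± 0.524 CPM per kb. Fbxl5 and Aco1 overlapped in wild type, and the remaining neighbours there did not.

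Among other genes of iron and haem handling, more were called higher than lower in knockout LSK cells. Of 95 genes in 7 lists drawn up by role, 80 were tested, and 27 rose and 10 fell (edgeR, adjusted over all genes tested; median log2 difference 0.11, against -0.03 over all genes). That is 33.8% higher and 12.5% lower, beside 21.0% and 21.2% of all genes. Leaving out the second knockout library gave 24 that rose and 9 that fell, leaving out the first wild-type library 18 and 8, and leaving out the second wild-type library 24 and 5. Of the 27 mitochondrial iron and iron-sulphur genes, 7 rose (25.9%) and 0 fell, with a median of 0.12. Hspa9, the mitochondrial chaperone that serves cluster assembly, lay at 831 and 777 CPM in knockout and 502 and 509 CPM in wild type (1.59-fold, adjusted p = 0.000105). Nubp2, a cytosolic cluster scaffold, and Abcb10, a mitochondrial transporter that binds mitoferrin 1, rose 1.67-fold and 1.64-fold (adjusted p = 5.74e-05 and 0.000156).

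Of 10 genes of uptake and reduction, 4 rose and 2 fell (median 0.13), beside 21.0% higher and 21.2% lower of all genes. Lcn2, which captures iron-loaded siderophores, rose most, and it is also a neutrophil granule gene. The 13 neutrophil genes, Lcn2 included, summed to 176 and 109 CPM in knockout and 37.7 and 50.0 CPM in wild type. Of 10 tested, 4 were higher, Lcn2 among them, and 2 lower, beside the same shares of all genes. Lcn2 alone gave 55.57 and 58.85 CPM of the knockout sums and 1.83 CPM of each wild-type sum. S100a8 gave 55.36 and 8.94 CPM in knockout and 8.52 and 14.64 CPM in wild type. The metal importer Slc39a8 lay at 50.7 and 46.7 CPM in knockout and 27.3 and 24.2 CPM in wild type (1.89-fold, adjusted p = 0.000225). Cd163, the haemoglobin scavenger receptor of macrophages, lay at 7.35 and 8.09 CPM in knockout and 19.8 and 21.3 CPM in wild type (2.66-fold lower, adjusted p = 0.000126) and belongs to the macrophage list above. Of 6 storage and chaperone genes 3 rose and 0 fell (median 0.32), beside the same shares of all genes. Those that rose were the chaperone Pcbp1, which hands iron to ferritin (1.34-fold), and Bola2 and Glrx3, which carry clusters together (1.58-fold and 1.29-fold). The call of Pcbp1 was lost without the first wild-type library (adjusted p = 0.0573), and that of Glrx3 without the first knockout library or either wild-type library (adjusted p = 0.0717, 0.0834 and 0.135).

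The 3 tested genes of export and the hepcidin axis all rose (median 2.27), beside 21.0% of all genes. Hfe, which pairs with the transferrin receptor and hepcidin control, lay at 48.8 and 37.4 CPM in knockout and 22.8 and 13.7 CPM in wild type (2.36-fold, adjusted p = 0.00276). Cp, the ferroxidase ceruloplasmin, lay at 1.30 and 4.63 CPM in knockout and 0.254 and 0.563 CPM in wild type, and its call was lost without the second knockout library (adjusted p = 0.138) or the first wild-type library (0.0755). Erfe, the erythroid hormone that lowers hepcidin, held 18 and 14 reads in knockout and 1 and 6 in wild type, and its call was lost without any single library (adjusted p = 0.0631 to 0.314).

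Of 9 genes of haem synthesis, 2 rose and 2 fell (median -0.00). That is 22.2% in each direction, near the 21.0% higher and 21.2% lower of all genes. Alas1, the first and rate-limiting enzyme outside red cells, lay at 387 and 483 CPM in knockout and 94.3 and 95.3 CPM in wild type, 4.59-fold (log2 2.20, SE 0.115, adjusted p = 1.26e-07). Its red cell counterpart Alas2 held 0 reads in both knockout libraries and 35 and 16 reads in wild type, at least 7.99-fold lower against a floor of 3 reads per library; it is in the red cell list that fell. Of 10 genes of haem transport and breakdown, 4 rose and 2 fell (median 0.25), beside the same shares of all genes. Flvcr1, a haem exporter, lay at 92.4 and 73.0 CPM in knockout and 38.2 and 42.5 CPM in wild type (2.05-fold, adjusted p = 9.06e-05). Blvrb, a biliverdin reductase abundant in red cells, lay at 12.2 and 16.0 CPM in knockout and 37.5 and 43.2 CPM in wild type (2.87-fold lower, adjusted p = 3.12e-05). Hp, haptoglobin, lay at 3963, 5994 and 4417 CPM in knockout neutrophils and 4124 and 635 CPM in wild-type ones. In LSK cells Hp lay at 343 and 369 CPM in knockout and 8.32 and 17.0 CPM in wild type (log2 4.81, SE 0.377, adjusted p = 0.00197). The part of cells with neutrophil genes in this LSK difference was not tested. Leaving out the first or the second knockout library kept the size (log2 4.90 and 4.75) and ended the call (adjusted p = 0.122 and 0.114).

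Of 15 sensing partners and regulators, 4 rose and 4 fell (median -0.04), 26.7% in each direction, beside 21.0% higher and 21.2% lower of all genes. Egln3, an iron-dependent oxygen sensor, rose 1.80-fold (adjusted p = 0.000266), and Vhl, which recognises the sensor's product, fell 1.49-fold (adjusted p = 0.00147).

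**Figure D2:**
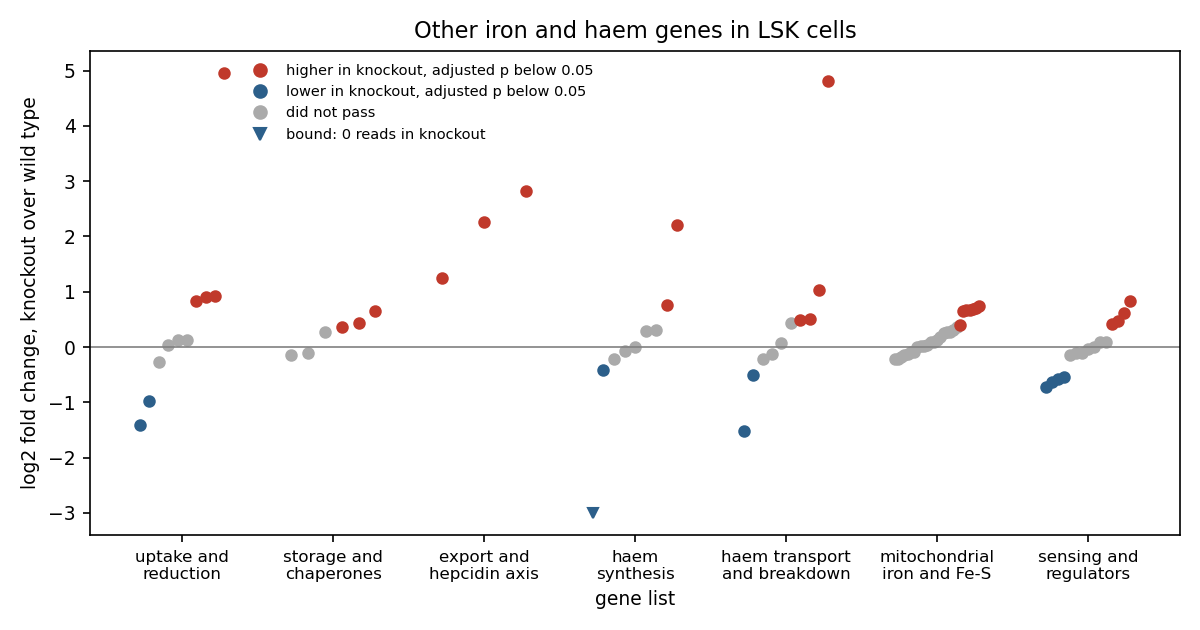
Log2 fold change of the 80 tested iron and haem genes in LSK cells, knockout over wild type, by list, with genes sorted by value inside a list. Of these, 27 rose and 10 fell, and the triangle shows Alas2 at its bound, since it held 0 reads in knockout.

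Neutrophils gave the comparison that the choice of genes did not use. No gene was called there: 0 of 12836 (0.0%) had an adjusted p under 0.05 by edgeR, 1787 (13.9%) had an unadjusted p under 0.05, and DESeq2 called 891 (6.94%). Of the 10 members, all of which were tested, 0 were called by edgeR, 3 had an unadjusted p under 0.05 (Fbxl5, Slc11a2 and Slc40a1) and 2 were called by DESeq2 (Fbxl5 and Slc11a2). Knockout libraries lay wholly above wild type for 4 members, beside 17.0% of all genes, and wholly below for 1, beside 17.5%. The median member difference was 0.68, against 0.02 over all genes, but 0.20 without the third knockout library.

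Fbxl5 had the largest difference of the members in neutrophils. It lay at 442, 586 and 467 CPM in knockout and 124 and 81.9 CPM in wild type. Every knockout library was above both wild-type libraries, with means of 499 ± 77.0 CPM (n = 3) and 103 ± 30.1 CPM (n = 2). The difference was 4.83-fold (log2 2.27, SE 0.486, 95% interval 1.13 to 3.42) with adjusted p = 0.209 by edgeR and 4.37e-06 by DESeq2. By edgeR it passed without the first wild-type library (2.66, adjusted p = 0.0474), a fit that leaves only the wild-type library that stood apart, takes the spread from the knockout libraries and assumes that the lone library varies like them. Without the second it was 1.97, and without both that library and the third knockout library 2.03 (adjusted p = 0.192). Of its exon bases 1.01% overlap the opposite-strand gene Bst1, which lay at 135, 196 and 189 CPM in knockout and 67.4 and 23.0 CPM in wild type. Of 13 neutrophil marker genes, 8 were also wholly higher in knockout, beside 17.0% of all genes. The 13 genes summed to 232948, 248313 and 682254 CPM in knockout and 225431 and 39082 CPM in wild type. The first wild-type library was close to the first knockout library in the sum, while Fbxl5 lay at 124 and 442 CPM there. Single markers differed between these libraries in both directions. Cxcr2 lay at 424 CPM in the first wild-type and 970 CPM in the first knockout library, and Camp at 34582 and 11124 CPM. The part of these genes in the Fbxl5 difference was not tested.

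The partner sensors differed less. Ireb2 lay at 23.1, 20.4 and 20.9 CPM in knockout neutrophils and 11.4 and 15.2 CPM in wild type, without overlap (log2 0.69, SE 0.366, adjusted p = 0.452). Aco1 lay at 19.2, 13.6 and 5.69 CPM in knockout and 20.8 and 17.3 CPM in wild type, with overlap through the first knockout library (log2 -0.57, SE 0.544, adjusted p = 0.672).

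Slc40a1, the exporter, lay at 467, 376 and 327 CPM in knockout neutrophils and 218 and 124 CPM in wild type. All knockout libraries were higher, but the difference did not pass (2.28-fold, log2 1.19, SE 0.482, 95% interval 0.05 to 2.33, adjusted p = 0.344 by edgeR and 0.0972 by DESeq2). Macrophage genes lay the other way, wholly lower in knockout for 11 of 13 tested, beside 17.5% of all genes. The macrophage list summed to 168, 134 and 76.2 CPM in knockout and 372 and 1099 CPM in wild type. Hmox1 lay at 97.4, 131 and 99.8 CPM in knockout and 85.9 and 118 CPM in wild type, with overlap (log2 0.10, SE 0.381, adjusted p = 0.930).

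Slc11a2 was the member that lay wholly lower in knockout neutrophils, at 3.53, 2.49 and 3.92 CPM in knockout and 7.90 and 16.4 CPM in wild type (3.67-fold lower, log2 -1.87, SE 0.526, adjusted p = 0.223 by edgeR and 0.0207 by DESeq2). Without the second wild-type library, the one with high MHC class II genes, it was -1.29. Genes of other blood cells moved with it. Wholly lower in knockout were 9 of 9 B cell, 9 of 12 T and NK cell and 7 of 7 MHC class II genes tested. Over all genes the share was 17.5%. B cell genes summed to 103, 21.3 and 143 CPM in knockout and 423 and 6391 CPM in wild type. T and NK cell genes summed to 99.4, 46.1 and 135 CPM in knockout and 186 and 1431 CPM in wild type. The part of these lists in the Slc11a2 difference was not tested. Tfrc overlapped between genotypes in neutrophils, at 28.7, 6.95 and 35.8 CPM in knockout and 17.8 and 12.2 CPM in wild type (log2 0.67, SE 0.680, 95% interval -0.94 to 2.28, adjusted p = 0.690). Slc25a37 lay at 16.5, 19.7 and 95.5 CPM in knockout and 19.0 and 26.2 CPM in wild type. Its fitted log2 difference of 0.96 (adjusted p = 0.632) rested on the third knockout library, the one with high red cell genes, and was -0.33 without it.

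The ferritin chains differed in whether the neutrophil groups overlapped, and the difference between the chains was not tested. Fth1 lay at 2664, 3963 and 3908 CPM in knockout and 1375 and 2644 CPM in wild type, groups that barely missed overlap (log2 0.81, SE 0.615, adjusted p = 0.597). Ftl1 lay at 153, 225 and 233 CPM in knockout and 205 and 194 CPM in wild type and overlapped (log2 0.03, SE 0.409, adjusted p = 0.980).

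**Figure D3:**
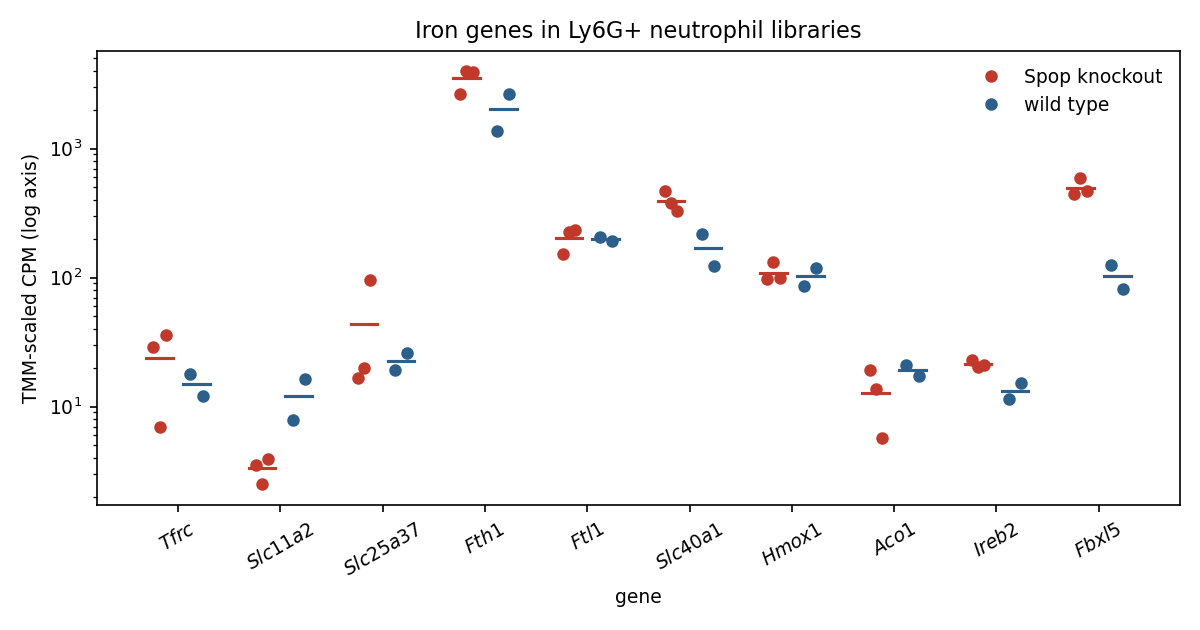
Levels of the 10 iron genes in Ly6G+ neutrophils, as TMM-scaled CPM on a log axis, with a point per library and a bar at each group mean (3 knockout libraries left of 2 wild-type ones). Fbxl5 lies at 442 to 586 CPM in knockout and 81.9 to 124 CPM in wild type, and 1 knockout library carries Slc25a37 at 95.5 CPM.

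Per kb of exon, Fth1, Ftl1 and Hmox1 led in neutrophils of both genotypes. In knockout they stood at 1012 ± 212, 152 ± 32.7 and 62.5 ± 10.7 CPM per kb, and Fbxl5 at 51.2 ± 7.90 and Slc40a1 at 43.3 ± 7.88 followed, overlapping their neighbours above (SD, n = 3). In wild type Slc40a1 at 19.0 ± 7.45 CPM per kb lay above Fbxl5 at 10.6 ± 3.09 with no overlap (SD, n = 2). Slc11a2 was last in knockout at 0.521 ± 0.116 CPM per kb, apart from Ireb2 above it, and Ireb2 was last in wild type, overlapping Slc11a2. The middle of the order, from Slc25a37 to Ireb2, overlapped at each step in knockout.

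The fitted changes of the 2 populations differed for several members, as the plot of log2 changes shows. Slc11a2 was wholly higher in knockout LSK cells and wholly lower in knockout neutrophils, while Fth1, Slc40a1 and Fbxl5 were wholly lower in knockout LSK cells and wholly higher in knockout neutrophils. That is 4 of 10 members, beside 11.7% of the 10842 genes tested in both populations, and the LSK side of it comes from the contrast that chose the genes. Ireb2 was wholly higher in knockout in both, 1 of 10 members beside 14.4% of genes. The difference between populations was not tested, because the 2 tables were normalized apart.

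**Figure D4:**
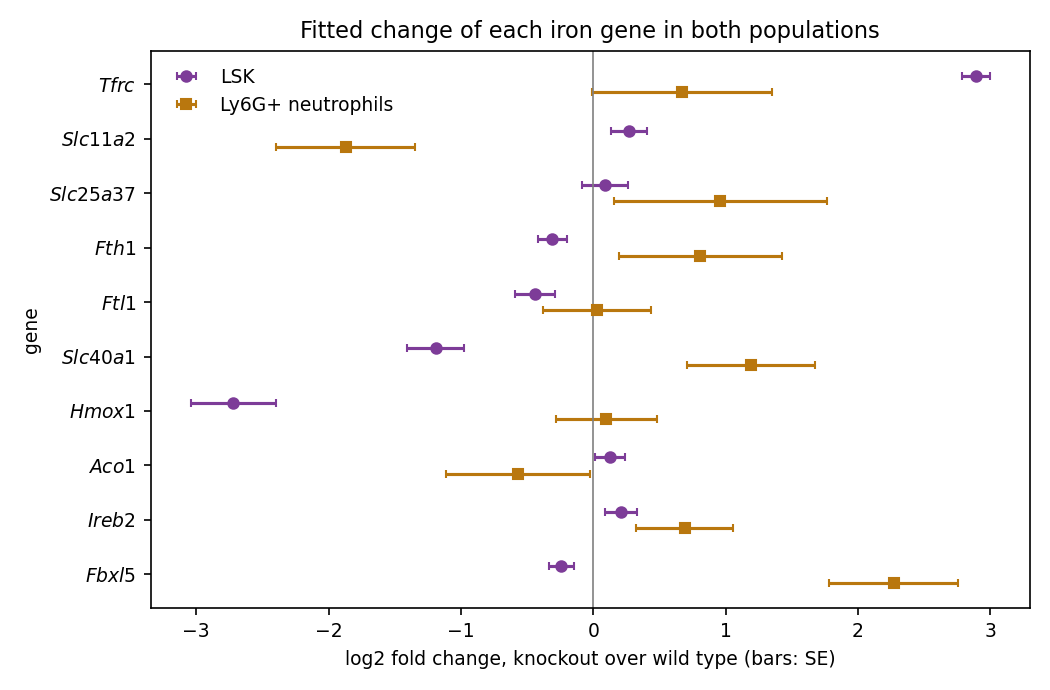
Fitted log2 fold change of each iron gene, knockout over wild type, in LSK cells (circles) and Ly6G+ neutrophils (squares), with bars of 1 SE. Fbxl5 stands at -0.24 in LSK cells and 2.27 in neutrophils, and Slc40a1 at -1.19 and 1.19.

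Ratios inside a library do not depend on the scaling between libraries; these pairs were chosen after the values had been seen and carry no test. In LSK cells Tfrc over Fth1, per kb of exon, was 0.141 and 0.120 in knockout and 0.0127 and 0.0157 in wild type, and Slc40a1 over Tfrc was 0.0180 and 0.0176 in knockout and 0.287 and 0.316 in wild type. In neutrophils both ratios overlapped between genotypes, and Slc40a1 exceeded Tfrc in every library, 6.28 to 37.2 times in knockout and 6.99 and 8.43 times in wild type. Fbxl5 over Ireb2 was 1.93 and 2.16 in knockout and 2.74 and 2.83 in wild-type LSK cells, and 18.6, 27.9 and 21.7 in knockout and 10.6 and 5.24 in wild-type neutrophils. Fth1 over Ftl1 was 6.71, 6.81 and 6.47 in knockout neutrophils and 2.59 and 5.28 in wild-type ones, and overlapped in LSK cells.

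**Figure D5:**
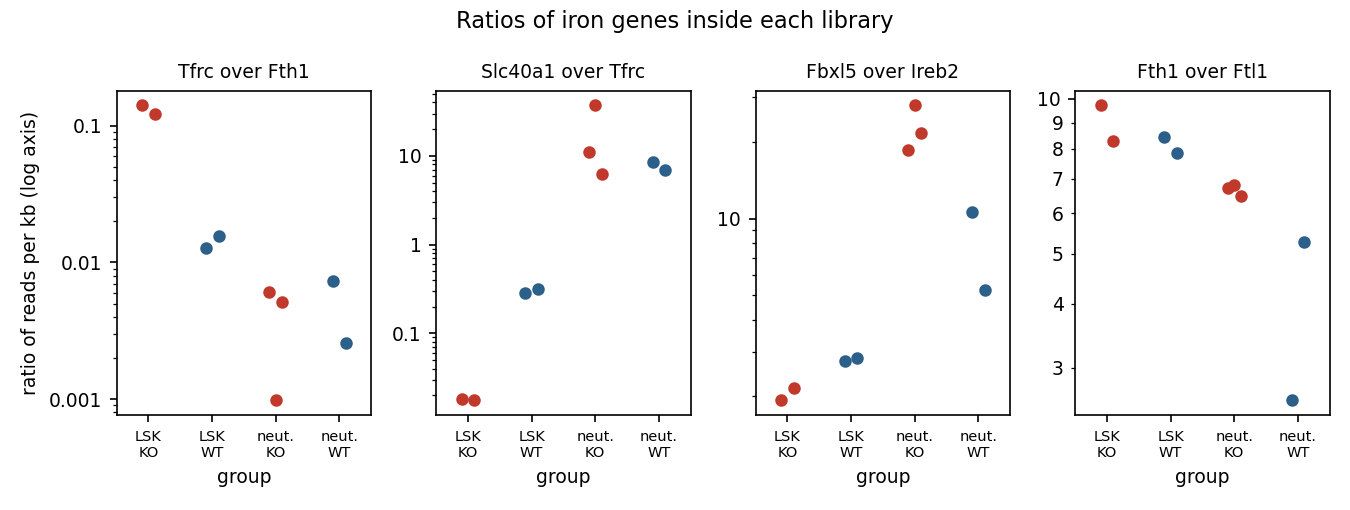
Ratios of reads per kb of exon between pairs of iron genes inside each library, on log axes, for LSK cells and Ly6G+ neutrophils (neut.), knockout (KO) left of wild type (WT), with a point per library. Tfrc over Fth1 separates the LSK genotypes, at 0.141 and 0.120 in knockout and 0.0127 and 0.0157 in wild type.

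Of the 79 listed iron and haem genes tested in neutrophils, edgeR called 0 and DESeq2 called 2 higher (Steap4 and Egln3) and 3 lower (Cd163, Hfe and Fdx1l), beside 6.94% of all genes. Of the 79, 10 had an unadjusted p under 0.05, beside 13.9% of all genes. Medians were -0.78 for uptake and reduction, -0.54 for storage and chaperones, 0.13 for haem synthesis, -0.12 for haem transport, -0.46 for mitochondrial iron and 0.19 for sensing partners. For export and the hepcidin axis the median was -3.09, over only 2 tested genes, Hfe and Cp. Cp lay at 0.546, 0.0790 and 0.856 CPM in knockout and 0 and 6.59 CPM in wild type. The higher value is that of the second wild-type library. Steap4, a metalloreductase that reduces iron for uptake, lay at 184, 276 and 51.0 CPM in knockout and 3.70 and 8.07 CPM in wild type (28.9-fold, log2 4.85, SE 0.898, adjusted p = 0.207 by edgeR and 9.38e-08 by DESeq2). Every knockout library exceeded both wild-type ones. Egln3 lay at 30.1, 20.4 and 46.2 CPM in knockout and 11.7 and 6.38 CPM in wild type, also without overlap (adjusted p = 0.225 by edgeR and 0.0266 by DESeq2). Hfe lay at 9.76, 4.90 and 8.20 CPM in knockout and 19.1 and 146 CPM in wild type, where the higher value is that of the library with high MHC class II genes. Of the other genes named by the rule, Fdx1l lay at 1.53 to 2.70 CPM in knockout and 6.94 and 13.2 CPM in wild type, Alad at 1.86 to 19.9 CPM in knockout and 20.1 and 36.9 CPM in wild type, and Pcbp3 and Slc46a1 at under 1 CPM in every knockout library and 1.46 to 3.24 CPM in wild type.

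The genes whose levels followed Tfrc most closely over the 9 libraries were Mthfd2, Cst7, Slc16a1, Rgcc and Gatm. The measure was the distance between log2 CPM profiles, each population centred on its own mean, over 9350 genes, where the median distance was 3.70. The Tfrc profile itself has a size of 3.46, so a gene that did not vary would lie 3.46 away. The LSK difference that chose the members enters this measure. By correlation over the 9 libraries, Slc16a1 (0.986) was above Mthfd2 (0.916). Mthfd2, a mitochondrial enzyme of folate metabolism, was nearest at 1.47, and lay at 99.2 and 89.8 CPM in knockout and 14.1 and 17.3 CPM in wild-type LSK cells. Slc16a1, a lactate carrier, was at 1.69 with 394 and 370 CPM in knockout and 141 and 144 CPM in wild-type LSK cells. Cst7, a cysteine protease inhibitor, was at 1.58, Rgcc at 1.72 and Gatm, the first enzyme of creatine synthesis, at 1.74. Their fitted log2 changes in neutrophils, where Tfrc was at 0.67, were -0.20 for Mthfd2, -0.63 for Cst7, 0.19 for Slc16a1, 0.19 for Rgcc and 0.74 for Gatm. Mthfd2 and Cst7 thus lay on the other side of 0 from Tfrc there.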

How the data were processed

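Per the labels' protocols, RNeasy Micro columns gave the RNA and SMART-Seq v4, which does not keep strand, the libraries. Tools in the submitters' processing notes are STAR, featureCounts, DESeq2 and bcl2fastq, with no versions, and the builds are mm10 and GRCm38. The sources used here do not give the annotation or the strand setting. Raw counts per gene, as the authors deposited them for each population, were used in all tests. They also deposited normalized values (signal), which equalled counts divided by 1 factor per library within 0.004% and were not tested.

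The test of the counts within a population was that of edgeR 4.0.16 under R 4.3.3 (TMM, filterByExpr, robust quasi-likelihood F test, Benjamini-Hochberg over all genes tested, threshold 0.05), with DESeq2 1.42.0 as an alternative. Levels are CPM scaled by TMM, per kb of GENCODE M21 exons where stated, and errors are SD over libraries or SE. Populations were normalized apart, so levels were not tested between them. A floor of 3 reads was 0.109 to 0.159 CPM and covers counting error only. The LSK table was matched by Ensembl identifier, the neutrophil table by symbol. The labels do not say whether replicates are separate animals; the p-values therefore reflect spread between libraries that may be technical. Chi-square per gene between replicates was 9.87 or more, beyond sampling noise. The procedure was also run on simulated counts. Their spread between replicates was set the same for both populations and was well below that of the neutrophil libraries. That run therefore does not show how the neutrophil fit behaves.

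The members and lists were chosen with earlier results of these data known. Besides the members, the text names up to 3 genes per list with the smallest p in LSK cells and 1 in neutrophils, the 5 genes most like Tfrc (mean log2 CPM of at least 2, prior count 2), ferritin copies, and marker genes of other cells. Of the remaining marker lists in LSK cells, 9 of 10 LSK genes fell and 1 rose, 9 of 10 B cell genes and 5 of 7 MHC class II genes fell, 1 of 7 T and NK cell genes rose and 1 fell, and 1 of 7 immediate-early genes rose and 3 fell. Over all genes there, 21.0% rose and 21.2% fell. In neutrophils, where edgeR called no gene at all, the other lists had medians of -1.17 (LSK genes), 0.76 (red cell), 0.16 (S, G2 and M phase) and -0.17 (immediate-early). Alternatives were other scalings, no filter, DESeq2, each library left out, the replicate number as a block and, chosen after seeing the data, both neutrophil libraries that stood apart left out. Results of some genes that this rule names are left out.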

Additional observations from a re-analysis of the deposited data

Results flagged for a closer look

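Some genes lay wholly on opposite sides of wild type in the knockout libraries of the 2 populations. The difference in log2 fold change, neutrophils minus LSK cells, was 2.51 for Fbxl5, 2.39 for Slc40a1, 1.12 for Fth1 and -2.14 for Slc11a2. Among the other iron and haem genes it was -4.67 for Hfe, -1.23 for Glrx3 and -1.12 for Nubp2. These differences were not tested, the LSK side of the first 4 comes from the contrast that chose the genes, and such opposite separation was seen in 11.7% of all genes tested in both populations. Fth1 was the closest case, since its lowest knockout and highest wild-type neutrophil values were 2664 CPM in knockout and 2644 CPM in wild type. Hfe lay at 19.1 and 146 CPM in wild-type neutrophils, the higher value in the library with high MHC class II genes. Its log2 change in neutrophils, -3.43, ran from -4.20 to -1.36 with a library left out.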

How the results depend on the processing

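In LSK cells the call count was 5494 and ran from 3524 to 5718 with a library left out, the lowest without the first wild-type library. Listed iron genes that fell there numbered 10, and 5 to 9 with a library left out, the lowest without the second wild-type library. Upper-quartile scaling moved the split of LSK calls to 2207 higher and 3445 lower, against 2738 and 2756, and the median of all genes to -0.12 in both populations. In neutrophils, called genes numbered 0 by edgeR, but 334 without the filter, 891 by DESeq2 and 0 to 601 with a library left out, the highest without the first wild-type library. That fit keeps only the wild-type library that stood apart, so the knockout libraries alone give the spread and the lone library is assumed to vary like them. The same assumption holds wherever leaving out a library leaves a group with 1, as in every such LSK fit. Listed iron genes called there were 1 higher and 1 lower without the filter, 2 and 3 by DESeq2, and 0 to 2 higher and 0 to 1 lower with a library left out.

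Deviations of same-numbered libraries from their group means correlated at 0.004 in LSK cells and at 0.239 and -0.024 in neutrophils. In a group of 2 libraries the deviations mirror each other, so these values cannot tell whether the numbers pair the libraries. With the replicate block, 334 neutrophil genes were called, 1 listed iron gene higher and 1 lower, and the member median was 0.06. The block turned the neutrophil differences of Tfrc to -0.05, Slc25a37 to -0.31 and Ftl1 to -0.10. In LSK cells it gave 5776 calls.

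The member median in neutrophils, 0.68, ran from 0.20 to 0.71 with a library left out and was 0.19 without the wild-type library of replicate 2 and the knockout library of replicate 3. That pair also turned Tfrc to -0.0012, Slc25a37 to -0.09 and Ftl1 to -0.14. Over all settings that left libraries out, Tfrc ran from -0.0012 to 1.09, Slc25a37 from -0.33, without the knockout library of replicate 3, to 1.32, Ftl1 from -0.14 to 0.17 and Hmox1 from -0.06 to 0.39. Ftl1 was below 0 without the knockout libraries of replicate 2 (-0.06) and 3 (-0.08) and without the second wild-type library (-0.04), and Hmox1 without the second knockout (-0.06) and the first wild-type library (-0.05). Upper-quartile scaling gave -0.11 for Ftl1 and -0.06 for Hmox1, and the cause was not tested. Erfe also missed the threshold without the filter (adjusted p = 0.0511) and by DESeq2 (0.147), and Glrx3 with upper-quartile scaling (0.0618). The common coefficient of variation between replicates in edgeR was 0.126 in LSK cells and 0.608 in neutrophils.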
